A study of Rattus norvegicus with 20 samples.

Results

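The carriers described here are the mitochondrial solute carriers of the SLC25 family, as measured in rat liver after 15 d of feeding with a sesame lignan. Members were the probe sets of an Affymetrix array that carry exactly 1 gene symbol starting with Slc25a, leaving out Slc25a15, Slc25a20 and Slc25a42, with the probe set of highest mean standing for its gene. This gave 37 carrier genes, from 50 probe sets, of 14217 genes with 1 symbol. Of the 37 carriers, 35 passed the filter on low values and were tested with 11576 genes in all. The rats were male Sprague-Dawley animals, 4 weeks old on arrival and acclimatized for 7 d. For 15 d, 1 of the 4 groups received no lignan, and the feed of the others held sesamin, episesamin or sesamolin, each at 0.2%. Each group held 7 rats, and liver RNA of 5 rats per group was hybridized, 1 array per rat, after the heaviest and the lightest rat of each group had been left out.

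SLC25 proteins are small membrane proteins, nearly all of the inner mitochondrial membrane, that exchange nucleotides, phosphate, carboxylic acids, amino acids and cofactors between matrix and cytosol. In liver they link the respiratory chain, the urea cycle, gluconeogenesis and fatty acid synthesis to the cytosol, since the inner membrane does not let these solutes pass by itself. A few members sit in other membranes (Slc25a17 in the peroxisome, Slc25a46 in the outer mitochondrial membrane), and for several the substrate is not settled. Sesamin and episesamin are stereoisomers, which differ only in the configuration of a carbon atom, and sesamolin has an additional oxygen atom between its ring system and an aromatic group.

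The test called 5 carriers in at least 1 comparison with the lignan-free diet. The 250 bases before their start sites are shown because these are the members that were called. The sequences are RefSeq's for the GRCr8 assembly, written 5′ to 3′ in the direction of the gene. They lie at chr3:76599537-76599786 (minus strand) for Slc25a12, chr6:80437721-80437970 (minus) for Slc25a21, chr8:128712930-128713179 (plus) for Slc25a38, chr5:159219893-159220142 (minus) for Slc25a34 and chr9:1968389-1968638 (minus) for Slc25a41. Capitals mark a match to the nuclear receptor half-site AGGTCA, searched on both strands.
Slc25a12: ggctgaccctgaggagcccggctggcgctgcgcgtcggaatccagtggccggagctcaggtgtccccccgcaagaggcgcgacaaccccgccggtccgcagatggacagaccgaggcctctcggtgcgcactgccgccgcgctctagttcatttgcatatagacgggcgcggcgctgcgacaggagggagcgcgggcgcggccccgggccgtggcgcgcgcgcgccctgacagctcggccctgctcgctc
Slc25a21: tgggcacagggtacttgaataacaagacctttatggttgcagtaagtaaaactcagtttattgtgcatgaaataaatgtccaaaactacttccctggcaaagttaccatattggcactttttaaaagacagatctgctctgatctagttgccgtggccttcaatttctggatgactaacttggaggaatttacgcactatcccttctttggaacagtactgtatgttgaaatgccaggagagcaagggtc
Slc25a38: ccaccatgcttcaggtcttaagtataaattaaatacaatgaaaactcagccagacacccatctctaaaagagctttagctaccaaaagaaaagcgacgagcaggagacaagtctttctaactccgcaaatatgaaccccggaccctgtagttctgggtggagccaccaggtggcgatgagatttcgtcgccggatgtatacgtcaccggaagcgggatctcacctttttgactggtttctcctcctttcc
Slc25a34: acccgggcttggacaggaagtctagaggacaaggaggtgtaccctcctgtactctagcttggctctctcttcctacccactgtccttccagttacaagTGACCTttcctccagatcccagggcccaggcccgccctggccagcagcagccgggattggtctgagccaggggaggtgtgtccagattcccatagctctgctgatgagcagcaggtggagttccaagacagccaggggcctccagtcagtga
Slc25a41: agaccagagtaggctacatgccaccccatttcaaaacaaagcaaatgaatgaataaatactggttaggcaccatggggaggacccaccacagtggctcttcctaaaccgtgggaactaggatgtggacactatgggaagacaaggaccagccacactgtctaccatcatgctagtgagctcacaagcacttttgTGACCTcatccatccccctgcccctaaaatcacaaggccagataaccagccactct
The 3 carriers that were lower (Slc25a12, Slc25a21 and Slc25a38) had no match in this window. The 2 that were higher each had 1, read as TGACCT, from -152 to -147 in Slc25a34 and from -56 to -51 in Slc25a41, counted back from the start site. The half-site is a common word, present in 14.1% of the 33469 RefSeq windows of this length and in 5 of the 32 carrier windows (15.6%), those of Slc25a16, Slc25a27, Slc25a34, Slc25a39 and Slc25a41. Its direct repeat with 1 base between, AGGTCANAGGTCA, was present in 17 windows (0.0508%) and in 0 of 32 carrier windows. The STAT palindrome TTCNNNGAA was also searched, and was present in 7.67% of all windows and in 1 of 32 carrier windows, that of Slc25a27. A match is a description of the letters in this window. The 5 windows shown are too few to relate a match to the direction of a call.

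All values below are quantile-normalized intensities. The log2 changes were taken after an offset of 5.85 was added, which makes changes of dim probe sets smaller, and ± after a log2 change is its standard error. Probe sets differ in how brightly they hybridize, so the level of a carrier is compared only with itself. Mean raw brightness ran from 159 to 271 over the 20 arrays and did not separate the diets (two-sided exact permutation p = 0.54, 0.151 and 0.262 for sesamin, episesamin and sesamolin against lignan-free). Hepatocyte markers were present in full (all 7 of those on the array) with summed levels from 70247 to 79560. Kupffer cell markers were lower in the episesamin and sesamolin livers: their sum over 10 genes ran from 6974 to 7729 with the lignan-free diet, 4904 to 7786 with sesamin, 4979 to 6043 with episesamin and 4115 to 5811 with sesamolin (exact permutation of the mean log2 level, p = 0.00794, the smallest that 5 against 5 allows, for each of the last 2 diets; 0.0873 after adjustment over 33 array checks). The mean log2 level of lymphocyte and neutrophil markers was lower by the same test with episesamin (-0.47, exact permutation p = 0.00794, adjusted 0.0873) and with sesamolin (-0.52, p = 0.0159, adjusted 0.131). That of stellate cell markers was lower with sesamin (-0.21), episesamin (-0.14) and sesamolin (-0.22), each at an exact permutation p of 0.0317 (adjusted 0.131), so none of these passed after adjustment. In single tests 2 of the 10 Kupffer cell genes fell with episesamin and 6 with sesamolin. Of 8 endothelial genes Kdr and Lyve1 fell with both, while 0 of 7 lymphocyte and neutrophil, 0 of 10 stellate cell and 0 of 5 erythroid genes passed. Over all genes 2.91% rose and 2.21% fell with episesamin, and 3.28% rose and 2.95% fell with sesamolin. Of the other marker lists, the adipocyte gene Cidea rose with both lignans and the muscle gene Ckm rose with episesamin. The hepatocyte gene Apob fell with sesamolin, and no gene of the bile duct list passed. Mean log2 levels of 2 lists were higher with sesamolin: adipocyte (0.32, exact permutation p = 0.0317, adjusted 0.131) and bile duct markers (0.32, p = 0.0476, adjusted 0.175). Neither passed after adjustment. In whole liver, a change in the number of cells of a type and one in RNA per cell cannot be told apart. The part of these cells in the carrier results was not tested.

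Most of the 35 carriers tested were not called with any lignan. With sesamin, 0 of 35 carriers passed the threshold of an adjusted p of 0.05 in limma (Benjamini-Hochberg over all genes), where 0.432% of all genes did (0.397% higher and 0.0346% lower), and 1 carrier (Slc25a38) had an unadjusted p below 0.05. With episesamin, Slc25a34 rose and Slc25a21 and Slc25a38 fell, 3 of 35 or 8.57%, where 5.12% of all genes passed (2.91% higher and 2.21% lower). With sesamolin, Slc25a41 rose and Slc25a12 and Slc25a38 fell, again 8.57%, against 6.24% of all genes (3.28% higher and 2.95% lower). Each of these shares rests on 3 carriers and is near its background, and Slc25a34 passed the filter only through arrays of the lignan diets. An unadjusted limma p below 0.05 was found for 9 of 35 carriers with episesamin and 14 with sesamolin. The share of all genes at that level is not given here. The 4 arrays numbered 1 deviated from their diet means together (correlations of 0.126 to 0.247 over genes). Without them 0 of the 6 calls with episesamin and sesamolin passed, with limma adjusted p from 0.0652 to 0.124. With fewer arrays fewer genes passed in all: 342 instead of 593 with episesamin and 368 instead of 722 with sesamolin. The log2 changes with episesamin were then -0.41 for Slc25a21, -0.42 for Slc25a38 and 1.28 for Slc25a34. With sesamolin they were -0.73 for Slc25a12, -0.40 for Slc25a38 and 0.75 for Slc25a41. The values with all arrays are given below. In the single test over all 4 diets, 0 of 35 carriers passed, where 4.89% of all genes did; the lowest adjusted p were 0.0509 for Slc25a34, 0.0621 for Slc25a38 and 0.0699 for Slc25a21.

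A few of the 35 carriers separated the rats given episesamin or sesamolin from the lignan-free rats. With sesamin, 0 of 35 carriers had all 5 rats above, and 0 all 5 below, the 5 lignan-free rats, where 1.09% and 0.821% of all genes did. With episesamin, Slc25a11 and Slc25a34 lay above on all arrays and Slc25a21, Slc25a23 and Slc25a38 below, that is 2 and 3 of 35 against 3.81% and 3.04% of all genes. With sesamolin, 0 carriers lay above and 4 below (Slc25a12, Slc25a16, Slc25a21 and Slc25a38), against 3.7% and 3.23% of all genes. These counts rest on few carriers, and no direction of the family is read from them. Slc25a34 was tested only because it was high on arrays of the lignan diets.

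The median log2 change of the 35 carriers was -0.03 with sesamin, -0.07 with episesamin and -0.06 with sesamolin, beside -0.01, -0.02 and -0.01 over all genes. The median size of change, whatever its direction, was 0.13, 0.21 and 0.24 for the carriers and 0.12, 0.18 and 0.18 for all genes. Single carriers ranged from -0.37 to 0.30 with sesamin, from -0.70 to 1.36 with episesamin and from -0.66 to 1.12 with sesamolin. The 3 comparisons share the lignan-free arrays. The data bound most carriers rather closely. The 95% interval of the log2 change lay within 1 of 0 for 33, 30 and 29 of 35 carriers. It lay within 0.5 of 0 for 16, 16 and 13. A log2 change of 1 after the offset is about a doubling or halving of intensity for bright carriers. For dim carriers it stands for a larger change in intensity. A log2 change of 1 on this scale thus lay outside the intervals of most members, while smaller changes did not.

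**Figure D1:**
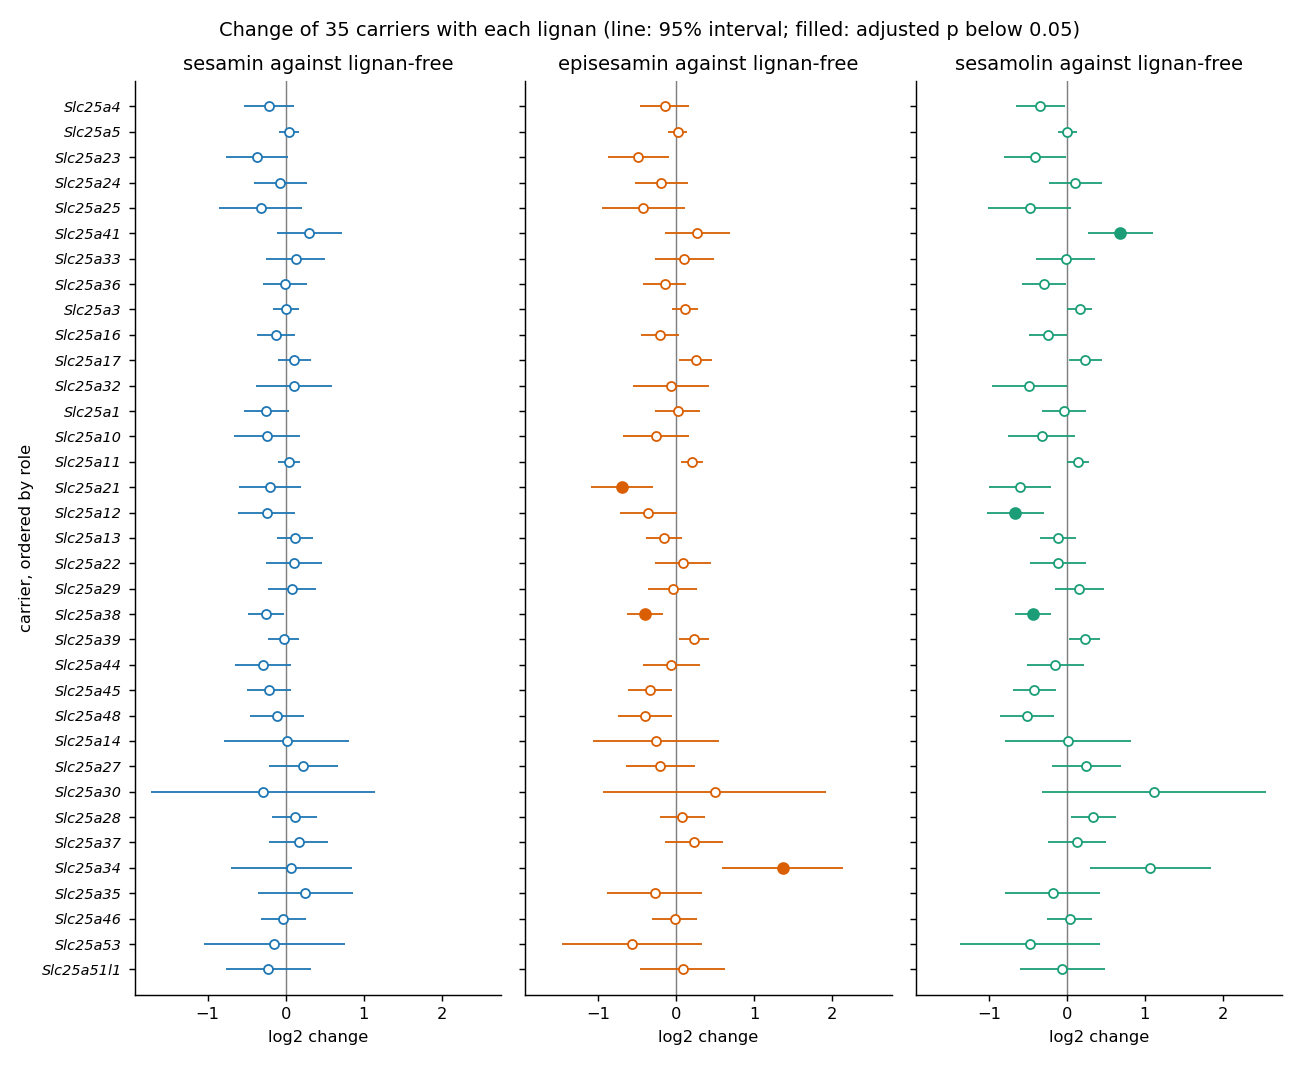
Log2 change of 35 carriers with sesamin, episesamin and sesamolin against the lignan-free diet (x axis, log2 of normalized intensity plus offset), ordered by role (y axis). Points are estimates, lines are 95% intervals and filled points passed an adjusted p of 0.05 in limma: 0 with sesamin, 3 with episesamin and 3 with sesamolin. Most intervals cross 0, and the widest is that of Slc25a30.

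Among the amino acid and glutathione carriers 9 were measured, and 1 fell with episesamin and 2 fell with sesamolin, where 2.21% and 2.95% of all genes fell. Slc25a38, which brings glycine into the mitochondrion for the first step of haem synthesis, was the only carrier called with both of these lignans. Its intensity was 179, 175, 156, 165 and 151 in the 5 lignan-free rats and 117, 151, 134, 128 and 161 in the sesamin rats. It was 139, 134, 134, 105 and 108 in the episesamin rats and 120, 147, 106, 130 and 107 in the sesamolin rats. All 10 rats given episesamin or sesamolin lay below all 5 lignan-free rats, and the sesamin rats overlapped both. The mean of 165 ± 12.2 (SD, n = 5) compared with 124 ± 15.8 with episesamin, a log2 change of -0.40 ± 0.11 (limma adjusted p = 0.0404), and with 122 ± 17.0 with sesamolin, a change of -0.43 ± 0.11 (adjusted p = 0.0273). With sesamin the mean was 138 ± 17.7 and the change -0.26 ± 0.11 (adjusted p = 0.612). The episesamin call was lost when any 1 of 8 arrays was left out (lignan-free 1, 2, 4 and 5, sesamin 3, episesamin 3, 4 and 5), with an adjusted p of up to 0.108. The sesamolin call was lost without any 1 of 6 (lignan-free 1, 2 and 4, sesamolin 1, 3 and 5), up to 0.0718.

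Slc25a12, the aspartate/glutamate exchanger of the malate-aspartate shuttle best known from muscle and brain, fell with sesamolin. The lignan-free values were 63.5, 90.2, 68.5, 73.0 and 93.0, and the sesamolin values were 46.7, 43.2, 45.2, 43.2 and 54.7, with no overlap. The sesamin values were 62.6, 70.2, 42.7, 68.6 and 82.1 and the episesamin values 69.2, 39.8, 86.1, 56.9 and 50.3. Both of these diets overlapped the lignan-free rats and spread over a wider range than sesamolin. The means were 77.6 ± 13.2, 65.2 ± 14.5, 60.5 ± 17.9 and 46.6 ± 4.78 (SD, n = 5) for lignan-free, sesamin, episesamin and sesamolin. The log2 change with sesamolin was -0.66 ± 0.17 (limma adjusted p = 0.0297), and with sesamin and episesamin it was -0.24 and -0.36 (adjusted p = 0.827 and 0.263). The sesamolin call was lost without any 1 of 7 arrays (lignan-free 2, 4 and 5, sesamolin 1, 2, 3 and 4), up to an adjusted p of 0.0787.

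Slc25a13 (citrin), the exchanger of the same shuttle that dominates in liver, did not pass in any comparison. Its values ran from 2560 to 3113 with the lignan-free diet (median 2796), from 2765 to 3342 with sesamin (median 3113), from 2371 to 2714 with episesamin (median 2548) and from 2119 to 3509 with sesamolin (median 2617). In the order of the rats these were 2560, 2796, 2796, 2833 and 3113 with the lignan-free diet, 2765, 3113, 3029, 3342 and 3113 with sesamin, 2448, 2371, 2714, 2594 and 2548 with episesamin, and 2205, 2724, 2119, 2617 and 3509 with sesamolin. All episesamin rats were below all sesamin rats, yet the difference of -0.28 between these diets had a limma adjusted p of 0.28. The log2 changes from the lignan-free diet were 0.12, -0.15 and -0.12.

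Slc25a39, which carries glutathione into mitochondria, had means of 1159 ± 126 (SD, n = 5) with the lignan-free diet, 1134 ± 55.6 with sesamin, 1357 ± 148 with episesamin and 1355 ± 120 with sesamolin. Its log2 changes of 0.23 with episesamin and 0.23 with sesamolin did not pass (limma adjusted p = 0.178 and 0.17). Slc25a45 and Slc25a48 gave changes of -0.42 (adjusted p = 0.0709) and -0.51 (adjusted p = 0.0727) with sesamolin, the 2 nearest to the threshold after Slc25a21. A second probe set of Slc25a48 gave only -0.12 with sesamolin (limma adjusted p = 0.751). The other measured members were Slc25a22 (glutamate), Slc25a29 (basic amino acids) and Slc25a44 (branched-chain amino acids), with changes between -0.29 and 0.16 over the 3 lignans. Slc25a18, another glutamate carrier, stayed below the filter level of 17.8 on all but 1 episesamin array, with diet means from 3.32 to 7.16, and was not tested.

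Of the 4 di- and tricarboxylate carriers, 1 fell with episesamin, where 2.21% of all genes fell. Slc25a21 exchanges 2-oxoadipate, from lysine and tryptophan breakdown, for 2-oxoglutarate. Its values were 81.6, 61.7, 75.4, 72.8 and 63.2 with the lignan-free diet and 18.6, 53.7, 50.1, 43.3 and 51.9 with episesamin. They were 42.8, 52.3, 46.1, 48.5 and 35.3 with sesamolin and 55.9, 60.2, 69.7, 51.3 and 67.9 with sesamin. Every episesamin and every sesamolin rat was below every lignan-free rat, and 1 episesamin rat, at 18.6, stood far below the others. The change was -0.70 ± 0.19 with episesamin (limma adjusted p = 0.0382) and -0.60 ± 0.19 with sesamolin (adjusted p = 0.068). With sesamin it was -0.20 (adjusted p = 0.889). Without that rat the change was -0.46 and still passed (adjusted p = 0.0311). The call was lost without any 1 of 6 other arrays (lignan-free 1 to 5 and episesamin 4), up to an adjusted p of 0.0848.

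Slc25a11, the oxoglutarate/malate carrier of the malate-aspartate shuttle, is shown rat by rat because its values were seen to separate the diets, outside the naming rule. Its values were 800, 840, 724, 720 and 727 with the lignan-free diet, 806, 838, 760, 754 and 768 with sesamin, 850, 891, 901, 882 and 863 with episesamin and 793, 910, 843, 816 and 846 with sesamolin. All 5 episesamin rats were above all lignan-free and all sesamin rats. The log2 change with episesamin was 0.20 ± 0.07, and it did not pass (limma adjusted p = 0.0901). Slc25a10, the dicarboxylate carrier, had changes of -0.24, -0.26 and -0.32 with sesamin, episesamin and sesamolin, and none passed.

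Slc25a1, which exports citrate for fatty acid and sterol synthesis, showed no change that passed. Its values were 1627, 2437, 1664, 2143 and 1970 with the lignan-free diet and 1288, 1843, 1731, 1546 and 1859 with sesamin. They were 1526, 2030, 2078, 2096 and 2186 with episesamin and 1555, 2081, 2087, 2004 and 1827 with sesamolin. All diets overlapped, and the log2 changes were -0.25, 0.02 and -0.03.

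**Figure D2:**
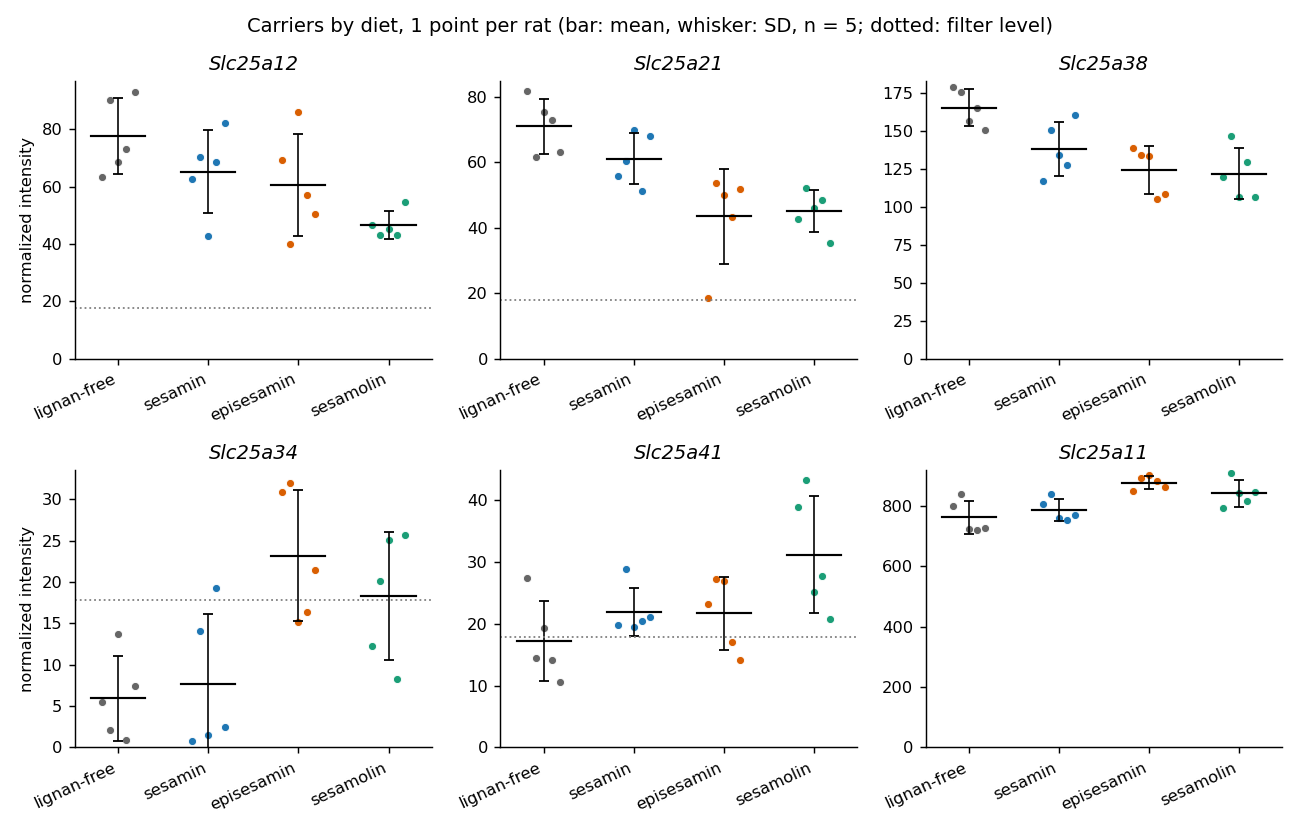
Normalized intensity (y axis) of 6 carriers by diet (x axis), 1 point per rat, with the mean as a bar and the SD as a whisker (n = 5, drawn down to 0 at most); the dotted line is the filter level of 17.8. Slc25a38 and Slc25a21 were lower in all episesamin and sesamolin rats than in all lignan-free rats, while most values of Slc25a34 and Slc25a41 lie near or below the filter level.

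The nucleotide carriers had 8 measured members, of which 1 rose with sesamolin, where 3.28% of all genes rose. Slc25a41, an ATP-Mg/phosphate carrier, was dim: its values were 27.4, 14.5, 19.4, 14.2 and 10.6 with the lignan-free diet and 38.8, 43.3, 25.1, 27.8 and 20.8 with sesamolin. The sesamin values were 19.9, 28.8, 19.4, 20.4 and 21.1 and the episesamin values 23.2, 27.3, 26.9, 17.0 and 14.2. Only 2 of 5 lignan-free arrays were above the filter level, and the highest lignan-free rat was above 2 sesamolin rats. The log2 change with sesamolin was 0.69 ± 0.20 (limma adjusted p = 0.0456). With lignan-free arrays below the filter level raised to it, sesamolin was at least 1.52-fold higher. The call was lost without any 1 of 14 of the 20 arrays, with an adjusted p of up to 0.124. The 6 arrays it did not need were episesamin 2, 3 and 5, sesamolin 5, sesamin 2 and lignan-free 1. Slc25a23, Slc25a24 and Slc25a25, which also carry ATP-Mg and phosphate, did not pass; Slc25a23 gave -0.37, -0.49 and -0.41 with sesamin, episesamin and sesamolin, and Slc25a25 gave -0.32, -0.42 and -0.48. Slc25a33 and Slc25a36, carriers of pyrimidine nucleotides, gave changes between -0.29 and 0.13.

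The ADP/ATP carriers exchange matrix ATP for cytosolic ADP. Slc25a5, the form most cells other than muscle rely on, was the steadiest of all carriers, with 5662, 5635, 5747, 5721 and 5732 in the lignan-free rats and 5761, 6239, 5847, 5600 and 5934 in the sesamin rats. The episesamin rats had 5801, 5801, 5783, 5847 and 5588 and the sesamolin rats 5825, 6023, 5783, 5290 and 5721. The diets overlapped fully, with log2 changes of 0.04, 0.02 and 0.01 and 95% intervals that ran from -0.12 to 0.17 at their widest ends. Slc25a4, the heart and muscle form, gave -0.21, -0.15 and -0.34, and none passed. Slc25a31, the testis form, was not above the filter level on any array.

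Slc25a3 brings phosphate into the matrix for ATP synthesis. Its values were 3906, 3625, 3833, 3332 and 3484 with the lignan-free diet, 3934, 3993, 3434, 3428 and 3475 with sesamin, 3794, 3563, 4115, 4103 and 4049 with episesamin and 4150, 4486, 3815, 3857 and 4041 with sesamolin. The highest rats were given sesamolin, 1 episesamin rat (3563) lay below the lignan-free median, and both diets overlapped the lignan-free rats. The log2 changes were 0.01, 0.11 and 0.16 (limma adjusted p = 0.992, 0.461 and 0.25). Of the cofactor carriers 3 were measured and 0 passed. Slc25a17, which carries coenzyme A, FAD and NAD in peroxisomes, gave 0.11, 0.25 and 0.24. Slc25a16, linked to coenzyme A, gave -0.12, -0.21 and -0.24, and Slc25a32, which carries folate and FAD, gave 0.11, -0.07 and -0.48. Slc25a51l1, a tested carrier that was placed in none of the roles, gave -0.23, 0.08 and -0.06 and was not called.

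Slc25a34, a carrier whose substrate is not settled, had the largest log2 change called, and lay below the filter level on most arrays. Its values were 5.51, 2.14, 13.8, 0.838 and 7.37 with the lignan-free diet and 0.785, 14.1, 1.46, 19.3 and 2.52 with sesamin. They were 30.9, 31.9, 15.2, 16.4 and 21.4 with episesamin and 12.2, 20.1, 25.1, 8.32 and 25.6 with sesamolin. All episesamin rats were above all lignan-free rats, but 0 of 5 lignan-free, 1 sesamin, 3 episesamin and 3 sesamolin arrays were above the filter level. The filter needs 5 such arrays. This carrier was therefore tested only because it was high on arrays of the lignan diets, and its call is not independent of that. Read against that level, the episesamin mean was at least 1.24-fold higher. The fitted change was 1.36 ± 0.37 with episesamin (limma adjusted p = 0.0402) and 1.07 ± 0.37 with sesamolin (adjusted p = 0.102). The episesamin call was lost without any 1 of 9 arrays (lignan-free 1, 2, 4 and 5, and episesamin 1 to 5), up to an adjusted p of 0.103. Slc25a35, Slc25a46 and Slc25a53, the other members of less certain substrate, gave changes between -0.57 and 0.25, and none passed.

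The lignans themselves were compared at the same dose and time in 3 pairs, and 0 of 35 carriers passed in any pair. Over all genes 1.23% passed between episesamin and sesamin (0.821% higher and 0.406% lower with episesamin), 1.81% between sesamolin and sesamin (1% higher and 0.812% lower with sesamolin) and 0% between sesamolin and episesamin, while 5, 8 and 2 carriers had an unadjusted p below 0.05. Between the stereoisomers episesamin and sesamin, Slc25a34 differed by 1.29 (95% interval 0.51 to 2.07, limma adjusted p = 0.111) and Slc25a21 by -0.50 (-0.89 to -0.10, adjusted p = 0.253). Slc25a38 differed by -0.15 between these isomers (-0.38 to 0.08). Between sesamolin and episesamin, Slc25a38 differed by -0.02 (-0.26 to 0.21), Slc25a12 by -0.30 (-0.67 to 0.06) and Slc25a41 by 0.42 (0.00 to 0.83, adjusted p = 0.869). The intervals lay within 1 of 0 for 30, 30 and 32 of 35 carriers, and within 0.5 for 20, 16 and 19, so these data bound the differences between lignans but do not show that they act alike. Rats of the 2 lignans did not overlap for 1 carrier above (Slc25a11) and 1 below (Slc25a13) with episesamin against sesamin, where 2.15% and 1.49% of all genes were so separated. For sesamolin against sesamin this held for 1 above (Slc25a39) and 0 below (2.3% and 2% of all genes), and for sesamolin against episesamin for 0 in either direction (0.406% and 0.397%). The calls against the lignan-free diet named different carriers for episesamin and sesamolin, except Slc25a38, yet for none of them was the difference between these lignans called.

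Slc25a30 had the largest SD between rats of a diet among the carriers, on the log2 scale after the offset. Slc25a30 is an uncoupling protein-like carrier first described in kidney. Its values were 283, 440, 1859, 885 and 3238 with the lignan-free diet and 789, 929, 264, 729 and 1700 with sesamin. They were 1692, 2169, 586, 511 and 3386 with episesamin and 2796, 3428, 770, 1218 and 3671 with sesamolin. The highest rat was 11.4, 6.44, 6.62 and 4.77 times the lowest in lignan-free, sesamin, episesamin and sesamolin, and all diets overlapped. The dim carriers Slc25a34, Slc25a53 and Slc25a14 had larger such ratios in some diets (up to 24.5 for Slc25a34 with sesamin), which the offset shrinks. The SD of Slc25a30 between rats of a diet was 1.16 on the log2 scale, where the median over the carriers was 0.277 and over all genes 0.262, and 20 of 11576 genes (0.173%) had a higher one. Accordingly the interval of its change was wide: -0.29 ± 0.68 with sesamin, 0.49 ± 0.68 with episesamin and 1.12 ± 0.68 with sesamolin (95% interval of the last -0.31 to 2.55, limma adjusted p = 0.378). At the other end stood Slc25a5, with an SD of 0.0473, lower than in 99.9% of genes, followed by Slc25a11 (0.0723) and Slc25a3 (0.0978). The 2 other uncoupling protein-like members, Slc25a14 and Slc25a27, and the iron carriers Slc25a28 and Slc25a37 (mitoferrins) did not pass with any lignan.

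**Figure D3:**
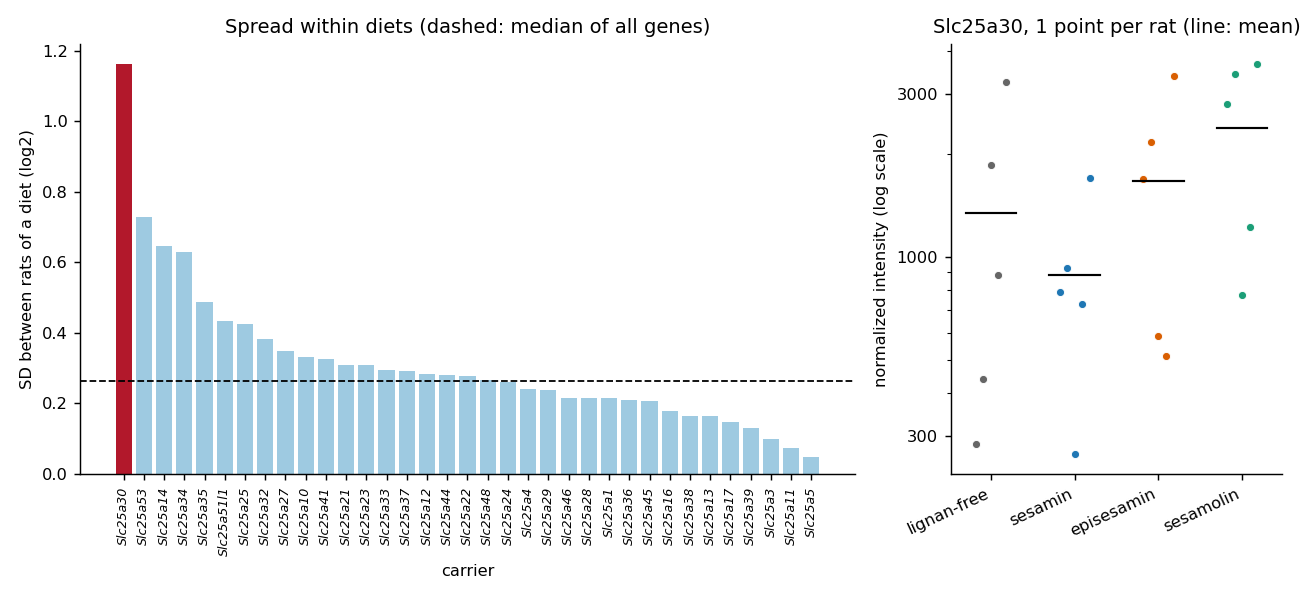
Left, SD between rats of a diet (y axis, log2) for 35 carriers (x axis), with the median of all genes, 0.262, as a dashed line; right, Slc25a30 by diet on a log axis, 1 point per rat with the mean as a line. Slc25a30 has an SD of 1.16, and each diet holds rats with low and with high values.

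Other genes varied together with Slc25a30 among rats of a diet. The relation was looked for after this spread had been seen, by fitting the level of Slc25a30 as a covariate beside the 4 diets in limma over the other 11575 genes. The slope passed an adjusted p of 0.05 for 5 genes. It was above 0 for Onecut1, a liver transcription factor also known as HNF6 (1.04 ± 0.13 log2 per log2, adjusted p = 0.0047), for LOC102549203 (0.42, adjusted p = 0.00685), for Tmx4, a thioredoxin-related membrane protein (0.24 ± 0.04, adjusted p = 0.0174), and for Socs2 (0.53 ± 0.09, adjusted p = 0.0292). It was below 0 for Bcl6 (-1.05 ± 0.16, adjusted p = 0.0174). Socs2, a feedback inhibitor of growth hormone signalling, and Bcl6, a transcriptional repressor, are both known to respond to growth hormone in liver. With the second probe set of Slc25a30, whose values within diets correlated with the first at 0.982, Onecut1, LOC102549203, Tmx4 and Bcl6 passed again and Socs2 did not (adjusted p = 0.0633).

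Over the 20 rats, as deviations from the diet means, the correlation with Slc25a30 was 0.883 for Onecut1 (Spearman 0.887), 0.866 for Tmx4 (0.904), 0.825 for Socs2 (0.854) and -0.84 for Bcl6 (-0.86), with the same sign in each of the 4 diets. Shuffling rats within diets 100000 times gave p = 4e-05, 6e-05, 0.0001 and 3e-05 for Pearson's r and 2e-05, 3e-05, 4e-05 and 1e-05 for Spearman's rho in these permutation tests, the last being the smallest they can give. Adjusted over the 6 relations computed, the p for these genes lay between 0.00012 and 0.00015 for r and was 6e-05 for rho, but the genes had been chosen by their slopes over the same rats. Without the 2 rats farthest from the median of Slc25a30, r was 0.855, 0.883, 0.811 and -0.805. Array brightness gave r = -0.0717 (permutation p = 0.777) and the actin 3′ to 5′ ratio, a sign of RNA quality, r = 0.385 (permutation p = 0.137).

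**Figure D4:**
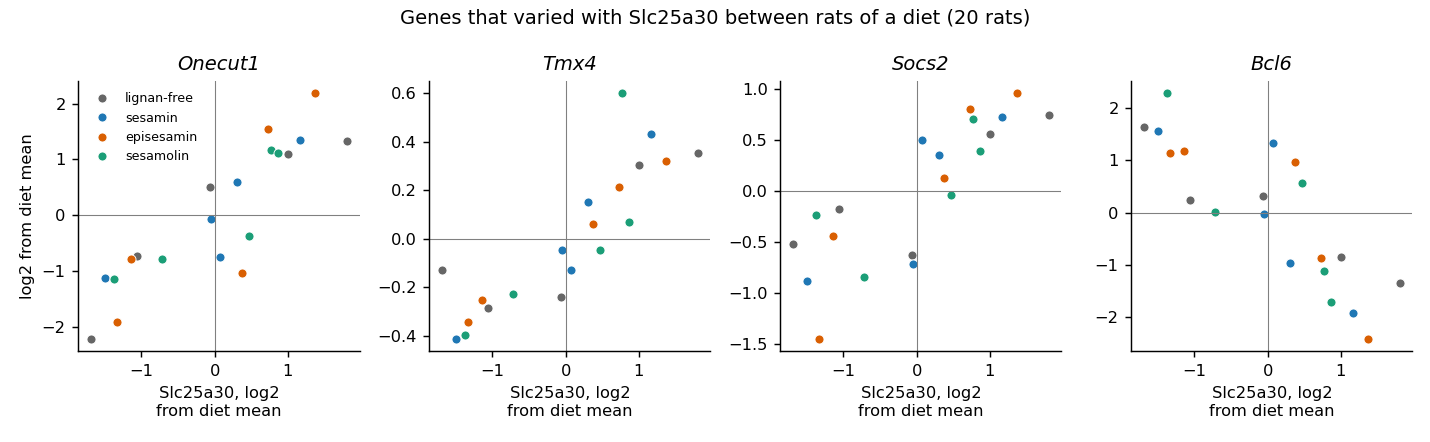
Deviation from the diet mean, in log2, of Slc25a30 (x axis) and of Onecut1, Tmx4, Socs2 and Bcl6 (y axes), 1 point per rat, 20 rats, coloured by diet. Onecut1, Tmx4 and Socs2 were high in rats with high Slc25a30 and Bcl6 was low, with r of 0.883, 0.866, 0.825 and -0.84.

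Genes that work beside the carriers were read from 6 lists, in none of which a gene was called with sesamin. Beside the counts of these lists stand the shares of all genes: 2.91% rose and 2.21% fell with episesamin, and 3.28% rose and 2.95% fell with sesamolin. The pyruvate carrier is not an SLC25 protein, and its 2 subunits went opposite ways. Mpc1 fell from 4079 ± 319 (SD, n = 5) with the lignan-free diet to 2194 ± 192 with episesamin (-0.89 ± 0.10, limma adjusted p = 7.77e-06) and to 2405 ± 264 with sesamolin (-0.76 ± 0.10, adjusted p = 5.81e-05), and the sesamin mean was 3008 ± 325 (adjusted p = 0.0583). Mpc2 rose by 0.44 with episesamin and 0.43 with sesamolin (adjusted p = 0.00424 and 0.00457). These were the only calls among 15 other mitochondrial membrane transporters. Among 5 SLC25 members under other symbols, Ucp3, an uncoupling protein of muscle, rose with episesamin from 8.35 to 26.0 (adjusted p = 0.0372; at least 1.41-fold against the filter level), 1 call of 5, and 0 passed with sesamolin. The Ucp3 call was lost without any 1 of lignan-free 1, 2, 4 and 5 and episesamin 1 to 5, up to an adjusted p of 0.0929.

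Of 6 enzymes of the malate-aspartate and glycerol phosphate shuttles, the 2 of the glycerol phosphate shuttle rose and the 4 of the malate-aspartate shuttle did not pass. Gpd2, the mitochondrial enzyme, rose from 62.8 ± 19.3 (SD, n = 5) to 179 ± 37.4 with episesamin (1.45 ± 0.20, limma adjusted p = 0.000129) and to 164 ± 29.4 with sesamolin (1.33 ± 0.20, adjusted p = 0.00035). Gpd1, the cytosolic enzyme, rose by 0.62 and 0.67 (adjusted p = 0.00751 and 0.00346). Among 7 genes of citrate export and use, 2 rose and 1 fell with episesamin: Aco1, the cytosolic aconitase, rose by 1.09 ± 0.10 (adjusted p = 7.87e-07), Idh1 by 0.28, and Acaca, acetyl-CoA carboxylase, fell by 0.69 (adjusted p = 0.0189). With sesamolin 2 rose, Aco1 by 1.03 and Me1, malic enzyme, by 0.73 (adjusted p = 0.0285). Single arrays ended the calls of Acaca (without lignan-free 4, adjusted p = 0.0567), Me1 (without lignan-free 1, 3 or 5 or sesamolin 2 or 3, up to 0.0594) and Idh1 (without any array except lignan-free 1 and sesamin 1, up to 0.119).

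Carriers are imported by small chaperones of the intermembrane space. Of 15 import genes, Timm10b and Timm9 rose with episesamin, by 0.83 and 0.42 (limma adjusted p = 6.99e-05 and 0.0269), and with sesamolin, by 0.84 and 0.39, where Tomm6 also rose by 0.29 (adjusted p = 0.0301). The Timm9 calls were lost without lignan-free 4 or 5 or episesamin 1 or 4, and without lignan-free 3, 4 or 5 or sesamolin 1, 3 or 5, up to an adjusted p of 0.0918. The Tomm6 call was lost without lignan-free 1, 2, 4 or 5 or sesamolin 1, 2 or 3, up to 0.0771. Over all genes, 2.91% rose with episesamin, and 3.28% rose and 2.95% fell with sesamolin. Of 16 genes of mitochondrial content and dynamics, 3 rose with episesamin (Hspe1 by 0.21, Immt by 0.37 and Mfn2 by 0.42). With sesamolin 4 rose (these 3 and Hspd1, by 0.32) and 1 fell (Nrf1, by 0.72, adjusted p = 0.0355; a dim gene named outside the naming rule). Of these, the calls of Immt (both lignans), Mfn2 (episesamin) and Hspe1 (sesamolin) held without each array in turn. The second probe sets of Immt and Timm10b had the same sign but did not pass with either lignan. The others were lost without at least 8 single arrays: Hspe1 with episesamin without any except sesamin 1 (adjusted p up to 0.105), Mfn2 with sesamolin without any except lignan-free 3, sesamin 1, 2 and 5 and episesamin 1 (up to 0.118), Hspd1 without lignan-free 2 to 5 or sesamolin 1, 3, 4 or 5 (up to 0.0873) and Nrf1 without any lignan-free array or sesamolin 1, 2, 4 or 5 (up to 0.0847). As a reference for the strength of the treatment, 7, 9 and 9 of 10 measured targets of PPARalpha, the receptor that turns on fatty acid oxidation genes, rose with sesamin, episesamin and sesamolin, with median changes of 1.53, 2.35 and 2.30. Of all genes 0.397%, 2.91% and 3.28% rose with these diets. Gpd2 and Mpc1 passed under every alternative run with both lignans, while Mpc2, Idh1, Me1, Hspd1, Hspe1, Immt, Mfn2, Timm9 and Tomm6 no longer passed when the arrays were scaled by their medians or left unscaled. Aco1, Timm10b, Ucp3, Nrf1 and Gpd1 did not pass on unscaled arrays, and Gpd1 with episesamin did not pass under median scaling either.

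Second probe sets were available past the filter for 10 carriers, 11 probe sets in all. None of these was called, with any lignan. Their change had the sign of the first probe set in 5, 11 and 8 of 11 cases with sesamin, episesamin and sesamolin, and the largest disagreement was 0.53, for Slc25a39 with sesamin. The 5 called carriers are on the array with 1 probe set each, so none of their changes could be read a second time. Among the genes beside the carriers, a second probe set did not pass for Immt and Timm10b with episesamin and sesamolin, and for Acaca and Ucp3 with episesamin.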

How the data were processed

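Liver RNA of 20 rats was measured on 1-colour Affymetrix arrays, and the values deposited by the authors are linear intensities of 31099 probe sets. The summary method is not named in the labels. Since array means differed, quantile normalization was applied, and log2 was taken after adding 5.85, the 20th percentile of all values. Probe sets above 17.8 (40th percentile) on 5 or more arrays were kept, and the brightest of a gene was kept, which left 11576 genes. Symbols came from GEO's platform annotation: 20826 probe sets had 1 symbol, 436 had several and 9831 were not listed. The number of arrays limits the precision.

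Groups came from the labels. limma 3.58.1 in R 4.3.3 fitted 4 diet means to all 20 arrays (16 residual and 2.59 prior degrees of freedom). Tests were two-sided, with Benjamini-Hochberg adjustment over all genes of a comparison and a threshold of 0.05, in 6 comparisons and an F test. Single values per array were compared by exact permutation, and correlations by 100000 permutations (scipy 1.17.1). Only numbers are shared between diets: correlations of the deviations of same-numbered arrays ran from 0.126 to 0.247 for number 1 and from -0.0593 to 0.165 for the others, so the numbers were not taken as pairs. Carriers called in any comparison and the 5 with the highest mean are given rat by rat (Slc25a11 was added after its values were seen), and up to 4 called genes per list may be named. Members and lists were chosen with earlier results of these data known. Tested on simulated data for episesamin against lignan-free (11576 genes), the fit called 30%, 74% and 96% of genes raised by 0.5, 1 and 2 on the log2 scale and 64% of those changed by -1. The simulation changed 50 genes at each size, in the episesamin group only, with independent normal noise. These shares depend on that setting and need not hold in these data. Alternatives changed the normalization, offset, filter, probe-set rule, variance model, arrays and covariates.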

Additional observations from a re-analysis of the deposited data

Results flagged for a closer look

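In 11 of 140 groups of 5 rats a carrier had a single rat that stood apart, with a gap to its nearest neighbour above Dixon's 95% critical value, where chance gives about 1 in 20 groups, or 7. Episesamin rat 1 was lowest for Slc25a1 (1526, the others 2030 to 2186) and for Slc25a21 (18.6, the others 43.3 to 53.7). Episesamin rat 5 was lowest for Slc25a5 (5588, the others 5783 to 5847), Slc25a28 (71.0, the others 117 to 130) and Slc25a44 (178, the others 217 to 233), and episesamin rat 4 was highest for Slc25a37 (90.4, the others no higher than 63.4). Sesamin rat 2 was lowest for Slc25a24 (47.0, the others 66.2 to 71.5) and Slc25a33 (63.1, the others 87.9 to 100.3) and highest for Slc25a41 (28.8, the others 19.4 to 21.1). Lignan-free rat 4 was lowest for Slc25a36 (32.4, the others 49.2 to 54.0) and lignan-free rat 3 for Slc25a48 (70.6, the others 102 to 115). Of these, only the Slc25a21 value belongs to a called change of the same diet, and that change passed without it.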

How the results depend on the processing

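No carrier changed direction under the alternatives run for a called change, but every call ended under at least 2 of them. With episesamin, the count of carriers that were higher was 0 instead of 1 without normalization, without a filter, with the filter at the 60th percentile, with the replicate number as a block, with the actin ratio as a covariate and without the arrays numbered 1. The count lower was 0 instead of 2 without a filter, with only the groups compared and without the arrays numbered 1, and 1 with the actin covariate and, a different carrier (Slc25a48), without the 6 dim arrays; it was 3 under median scaling (Slc25a21, Slc25a23 and Slc25a38). With sesamolin, the count higher was 0 instead of 1 without normalization, without a filter, with the filter at the 60th percentile, with probe sets averaged per gene, with a trended and robust variance, with only the groups compared, without the dim arrays and without the arrays numbered 1. The count lower was 4 instead of 2 under median scaling and with the filter at the 60th percentile, and 1 without the dim arrays (Slc25a48) and without the arrays numbered 1 (Slc25a21), where neither Slc25a12 nor Slc25a38 passed. Between sesamolin and sesamin 1 carrier (Slc25a32) was lower without the arrays numbered 1, and the F test called 3 carriers under median scaling and 1 with an offset of 16. Leaving out each array in turn gave 0 to 1 higher and 0 to 2 lower with episesamin, 0 to 2 higher and 0 to 4 lower with sesamolin, 0 to 1 higher between episesamin and sesamin, 0 to 1 lower between sesamolin and sesamin, and 0 for the other counts. With the replicate number as a block the calls were 2 lower (Slc25a21 and Slc25a38) with episesamin, and 3 lower (Slc25a12, Slc25a38 and Slc25a48) and 1 higher (Slc25a41) with sesamolin, and Slc25a34 was lost with episesamin (adjusted p = 0.0633). The causes were not tested. The alternatives without the arrays numbered 1, the fit on Slc25a30 and its other probe set were added after seeing the data. Scaling moved the median change of all genes: it was -0.08, -0.25 and -0.22 with sesamin, episesamin and sesamolin without normalization and -0.09, -0.13 and -0.10 under median scaling, and the genes called higher and lower went from 337 and 256 to 180 and 496 under median scaling with episesamin, and from 380 and 342 to 178 and 457 with sesamolin. Low signal limits Slc25a14, Slc25a27, Slc25a34, Slc25a35, Slc25a41 and Slc25a53, which were below the filter level on some arrays.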

Other observations

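Slc25a51 carries NAD into mitochondria, but its 2 probe sets are annotated to 2 gene records, and so fell outside the rule. The first had means of 285 ± 55.9 (SD, n = 5) with the lignan-free diet, 266 ± 62.7 with sesamin, 316 ± 20.7 with episesamin and 288 ± 46.2 with sesamolin. The second had 170 ± 54.2, 157 ± 42.8, 152 ± 32.4 and 148 ± 14.5. On both probe sets every diet mean lies within 1 SD of the lignan-free rats from the lignan-free mean. No test was run on them.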
